A study of Homo sapiens with 6 samples.

Results

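S phase was compared with G1 in 2 cell types of the H9 human embryonic stem cell (hESC) line: the undifferentiated hESCs and endoderm cells made from them. Of the 6 libraries of the series, 4 enter this comparison, namely hESC G1, hESC S, endoderm G1 and endoderm S; the 2 libraries labelled G1/S were not used. Each of the 14686 regions of the table, which are short stretches where 3′ read ends gather, was compared between S and G1 within each type, and the 2 types served as the pair of observations of the phase difference. The hESCs were passage 51 cells on Matrigel in medium conditioned by mouse embryonic fibroblasts, with G1 taken at 0 h and S at 3 h. The endoderm cells had spent 6 days in activin A at 100 ng/ml, in medium that held 0% fetal bovine serum at first, 0.2% a day later and 2% from then on, with 1 change of medium on day 3, with G1 taken at 0 h and S at 6 h. Cell type, medium, serum and the hours between G1 and S therefore cannot be told apart, and neither the event from which the hours count nor the way cells were brought into phase is given in the sources used here. All cells come from 1 line, with 1 library for each type and phase and no statement of separate cultures. The spread behind the p-values and standard errors is therefore how far the 2 types disagree in their S minus G1 difference. A response that differs between the types counts as error there. The spread among repeated libraries or cultures is not measured.

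Cells pass from G1 into S when cyclin-dependent kinases inactivate the retinoblastoma family of pocket proteins and free E2F factors, which switch on genes for nucleotide synthesis and for the replication machinery. Before that, during G1, origins of replication are licensed by loading MCM helicases with the help of CDC6 and CDT1. Embryonic stem cells are known for a short G1 with active cyclin-dependent kinases and E2F throughout the cycle, and G1 lengthens as they differentiate, for example into definitive endoderm, the layer that gives rise to gut, liver and pancreas.

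The value of a region is its number of reads divided by a size factor of the library, called signal below, and a difference is the log2(signal + 1) of S minus that of G1. The hESC G1, hESC S, endoderm G1 and endoderm S libraries held 4972977, 6203079, 5389666 and 2502792 reads. S was thus the deeper library in hESCs and the shallower one in endoderm, and 3 reads, the limit that a count of 0 allows, are worth between a signal of 1.77 in hESC S and 5.13 in endoderm S. Mitochondrial regions took 3.03% and 1.97% of the reads in hESC G1 and S and 0.716% and 0.522% in endoderm G1 and S, and 0 of the 5 regions on that chromosome differed at least 2-fold in both types. The cell type labels were set beside a few marker genes. EOMES, a T-box factor of early endoderm, stood at 275 and 219 in hESC G1 and S and at 5269.6 and 3669.8 in endoderm. SOX17, a defining endoderm factor, stood at 4.54, 1.77, 200.2 and 154. UTF1, a chromatin protein of pluripotent cells, stood at 1329 and 715 in hESCs against 107 and 159 in endoderm. Not every marker went with its label: LEFTY1, listed with the endoderm genes, stood at 2933 and 9399 in hESCs against 1344 and 308 in endoderm. Summed over the 17 endoderm genes measured, signal was 4786 and 11201 in hESCs and 47251 and 27344 in endoderm. Over the 14 pluripotency genes measured it was 5228 and 4574 in hESCs and 2289 and 2556 in endoderm. As these are bulk libraries, fewer cells of a kind and less RNA per cell cannot be told apart.

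No region was called different between S and G1 over the 2 types together. The limma fit with a term for cell type had 1 residual degree of freedom, called 0 of 14686 regions (0.0%) at an adjusted p under 0.05 and gave 0.9997 as its lowest adjusted p, with 319 regions at an unadjusted p under 0.05. edgeR and DESeq2 on the recovered reads also called 0, with 208 and 285 regions at an unadjusted p under 0.05. With the 2 G1/S libraries added to the fit the count was 0 too. Leaving either G1 library out of that larger fit raised the count, but G1 then has a single library. Such a fit does not compare S with G1 in both types, so its count is not given. None of the genes named below passed, so each is given by its signals, its S to G1 ratios or its differences and described as higher or lower by size. Intervals, where given, are 95% counting intervals of the S to G1 ratio. They cover counting error only, since there is 1 library for each type and phase. They may be too narrow even for that, because reads amplified by PCR are not independent molecules.

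The S minus G1 differences of the 2 types had little in common. In hESCs 2264 regions (15.4%) were at least 2-fold higher in S, a difference of 1 or more, and 1483 (10.1%) at least 2-fold lower. In endoderm 1547 (10.5%) were higher and 1852 (12.6%) lower. Higher in S in both types were 204 regions (1.39%) and lower in both 211 (1.44%), which makes 415 that moved the same way. Opposite ways were taken by 676 regions, of which 429 (2.92%) were higher in hESC S and lower in endoderm S and 247 (1.68%) lower in hESC S and higher in endoderm S. Quantile normalisation turned the order of these last 2 counts round, to 298 and 370, and left the totals at 437 the same way and 668 opposite.

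Taken over all regions, those higher in hESC S were not more often higher in endoderm S, which did not hold for named regions alone. Of the named regions higher in hESC S, 9.64% were higher in endoderm S, against 8.35% of all named regions, and 15.4% were lower, against 10.9%. Where both counting intervals left out a ratio of 1, the share higher was 17.5% against 17.1%, and the share lower 37.2% against 17.3%. Of the 2264 regions higher in hESC S, 9.01% were higher in endoderm S, below the 10.5% of all regions, and 18.9% were lower there, above the 12.6% of all regions. Seen from endoderm, 13.2% of the regions higher in endoderm S were higher in hESC S and 23.2% of those lower in endoderm S were higher in hESC S. Of the 1483 regions lower in hESC S, 14.2% were lower in endoderm S, above the 12.6% of all regions. A further 16.7% of them were higher there, above the 10.5% of all regions. These were 11.4% of the regions lower and 16.0% of the regions higher in endoderm S, against 10.1% of all regions lower in hESC S. Across the 14686 regions of these 4 libraries, which are not independent of each other, the differences of the 2 types had a Pearson correlation of -0.10 and a Spearman correlation of -0.08, and 47.3% shared a sign. These weak correlations are given as a description only.

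**Figure D1:**
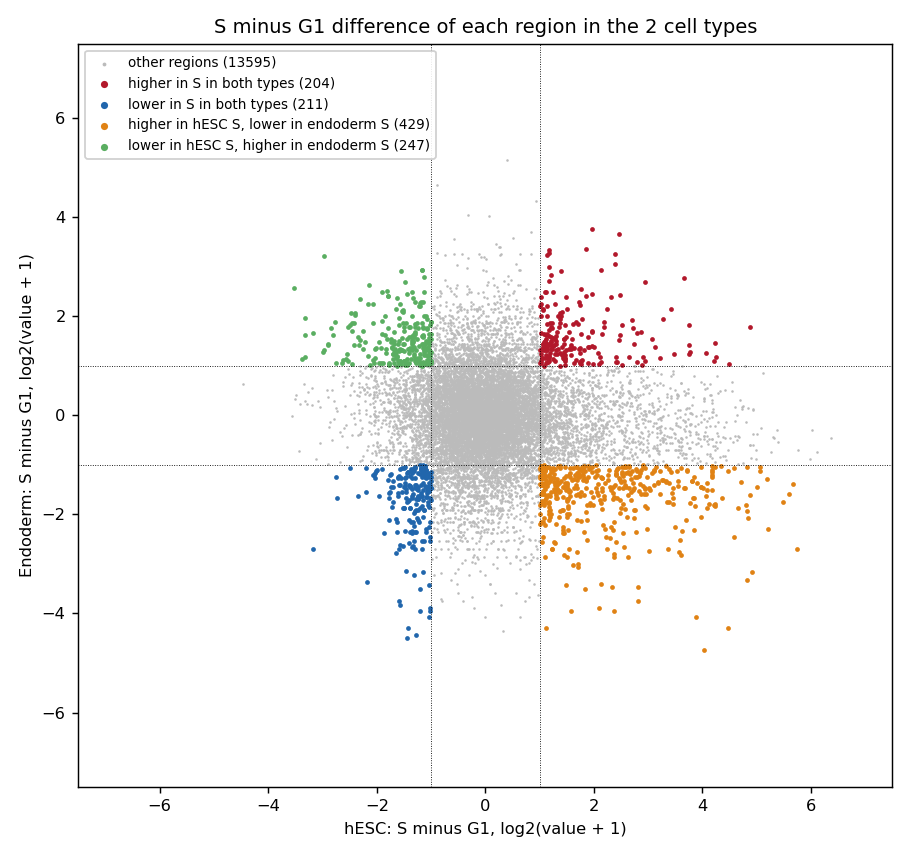
Each point is 1 of the 14686 regions, with its S minus G1 difference of log2(signal + 1) in hESCs on the x axis and in endoderm on the y axis; dotted lines mark 2-fold. The 204 regions higher in both and the 211 lower in both lie in 2 corners, and the 429 and 247 regions that moved opposite ways in the other 2.

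The excess of opposite over same-way regions was present among regions with many reads and among those with few. Split into 4 groups of like size by mean signal, the group of lowest signal held 182 regions that moved the same way and 281 that moved opposite ways, and the group of highest signal held 29 and 59. In that last group the commonest class was the one lower in hESC S and higher in endoderm S, with 44 regions, against 15 for the reverse. Where both counting intervals left out a ratio of 1, which 3685 regions did, 256 moved the same way and 483 opposite ways. The opposing depth of the S libraries in the 2 types runs alongside this pattern, and its part in it was not tested.

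Named and unnamed regions differed in makeup. The 10368 regions with a gene name gave 242 same-way and 308 opposite regions, and their 2 opposite classes were almost equal at 152 and 156. The 4318 regions without a gene name gave 173 and 368, and held 277 of the 429 regions higher in hESC S and lower in endoderm S. In hESCs 29.6% of unnamed regions were higher in S, against 9.50% of named ones, while in endoderm the shares were 15.8% and 8.35%.

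GC content moved with the differences, and did so differently in the 2 types. The GC of the last 500 bases of the transcript, known for 9881 named regions, had a Spearman correlation of -0.08 with the hESC difference and of 0.19 with the endoderm difference. Split into 5 groups of like size, the regions richest in GC had a median difference of -0.32 in hESCs and 0.17 in endoderm, and for the poorest in GC it was -0.12 and -0.21. Regions higher in both types had a median GC of 47.7%, those lower in both 39.0%, those higher in hESC S and lower in endoderm S 37.6% and those lower in hESC S and higher in endoderm S 43.9%, against 46.4% over all named regions. A GC correction was made in each library, on its deviation from the mean of the 4 libraries. With it the 4 classes in that order held 84, 128, 129 and 127 regions, against 88, 137, 141 and 150 of the same regions without it. Opposite regions thus still outnumbered same-way ones, 256 to 212.

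**Figure D2:**
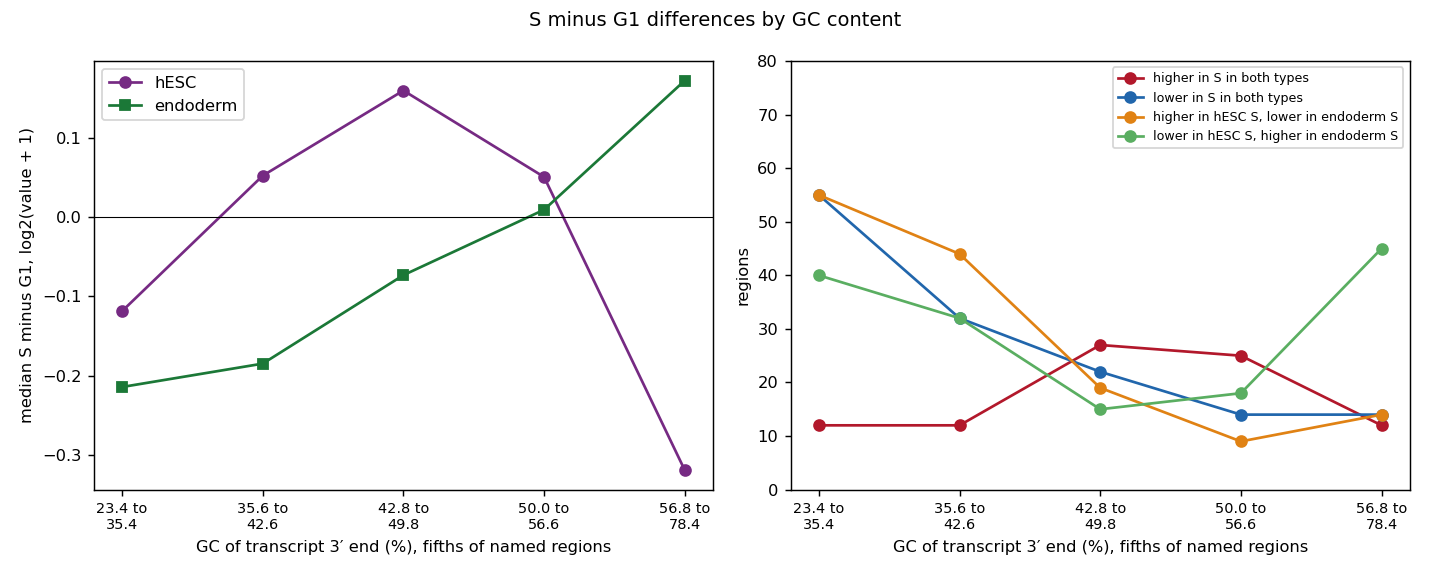
Left, the median S minus G1 difference of log2(signal + 1) in each of 5 groups of GC content (percent, last 500 bases of the transcript) in hESCs (circles) and endoderm (squares); right, the number of regions of each class per group. The medians of the GC-richest group are -0.32 in hESCs and 0.17 in endoderm, and the classes lower in endoderm S are most numerous in the GC-poorest group.

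Genes with more S signal in both types included a histone variant, a chaperone, a kinase and a methyl-donor enzyme. Of the gene names with a mean signal of at least 20 and both counting intervals clear of 1, 51 were higher in both types, and the 12 with the largest smaller difference are given here. Positions are as deposited, on hg18 (NCBI36), the builds that the submitters' processing notes name.

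C6orf223 (chr6:44075002-44075171, plus strand), now listed as the non-coding gene LINC03040, led that order. Its signal was 1.51 in hESC G1, 30.7 in hESC S, 50.4 in endoderm G1 and 351 in endoderm S. Both S libraries stood above the G1 library of their own type, though endoderm G1 exceeded hESC S. The S to G1 ratio was 20.3 in hESCs, resting on 2 G1 reads (95% interval 5.34 to 172), and 6.96 in endoderm (5.305 to 9.22). The limma phase difference was 3.22 ± 0.55 (SE), with an adjusted p of 0.9997 as for the other genes of this paragraph and the next.

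MAT2A (chr2:85625647-85625761, plus strand) encodes the methionine adenosyltransferase that makes S-adenosylmethionine, the methyl donor of the cell. It stood at 1.51 in hESC G1, 18.3 in hESC S, 17.95 in endoderm G1 and 122 in endoderm S. The ratios were 12.1 (3.08 to 104, on 2 G1 reads) and 6.77 (4.27 to 11.1). H2AFX (chr11:118469814-118470091, minus strand) encodes the H2A variant that is phosphorylated around DNA breaks. Its signal was 18.9 in hESC G1, 65.6 in hESC S, 42.8 in endoderm G1 and 205 in endoderm S. The ratios of 3.47 (2.23 to 5.59) and 4.798 (3.503 to 6.63) had overlapping intervals. The limma phase differences were 2.82 ± 0.61 (SE) for MAT2A and 1.99 ± 0.47 for H2AFX.

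RRAD (chr16:65513120-65513343, minus strand), a small GTPase related to Ras, stood at 62.04 in hESC G1, 245 in hESC S, 6.21 in endoderm G1 and 97.6 in endoderm S. Its ratio was larger in endoderm, 15.7 (7.72 to 36.1), than in hESCs, 3.95 (3.11 to 5.07), and the 2 intervals did not overlap. TSC22D3 (chrX:106843104-106843407, minus strand) encodes a leucine zipper protein induced by glucocorticoids. It had the most reads of the 12 in endoderm, at 231 in G1 and 746 in S, and 74.1 and 217 in hESC G1 and S. Its ratios of 2.92 (2.33 to 3.69) and 3.23 (2.79 to 3.73) were much alike in the 2 types.

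PIM1 (chr6:37250871-37251167, plus strand), a serine/threonine kinase that favours growth and survival, stood at 11.3 in hESC G1, 32.5 in hESC S, 61.5 in endoderm G1 and 179.7 in endoderm S. HSPA8 (chr11:122433547-122433707, minus strand), the constitutive HSP70 chaperone, stood at 3.78, 25.4, 91.8 and 265 in the same order. HSPA8 has many processed pseudogenes, and how reads matching several places were counted is not given in the sources used here. SCGB3A2, a secreted protein of airway cells, had 155, 405, 96.7 and 377, with ratios of 2.61 and 3.896. The other 4 were MCHR1, the receptor for melanin-concentrating hormone (ratios 3.68 and 5.95), C2orf54 (3.37 and 5.02), RTP1, which carries odorant receptors to the membrane (9.82 and 3.005), and ASB2, a substrate receptor of a ubiquitin ligase (2.82 and 2.97). Few reads lay behind HSPA8 and RTP1 in hESC G1, 5 and 7, with hESC ratio intervals of 2.67 to 21.7 and 4.57 to 25.1. ASB2 had 10 and 12 reads in endoderm G1 and S (interval 1.18 to 7.69).

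For lower signal in S in both types 51 names met the limits too, and the 12 given had weak to moderate signal, at most 266 in any library. In each of them both S libraries stood below the G1 library of the same type. ASCC3 (chr6:101063320-101063527, minus strand), a DNA helicase of the ASC-1 complex, had the most reads of them. It stood at 266 in hESC G1, 86.8 in hESC S, 65.6 in endoderm G1 and 20.5 in endoderm S. Its ratio was 0.327 in hESCs (0.268 to 0.398) and 0.313 in endoderm (0.156 to 0.573). A second ASCC3 region stood at 18.9 and 11.2 in hESC G1 and S and at 3.45 and 0 in endoderm, where both values lie below the limit of 3 reads in endoderm S.

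PIK3R2 (chr19:18142222-18142333, plus strand), a regulatory subunit of phosphoinositide 3-kinase, stood at 101 and 31.9 in hESC G1 and S and at 26.2 and 5.13 in endoderm. ST6GAL1 (chr3:188278829-188279044, plus strand), a sialyltransferase of the Golgi, had 60.5 and 17.7 in hESCs compared with 51.8 and 13.7 in endoderm. PTPLB (chr3:124693083-124693324, minus strand), now HACD2, a dehydratase of very long chain fatty acid synthesis, had 31.02 and 10.6 in hESCs versus 113 and 39.4 in endoderm. In these 3 genes S was between 2.86-fold and 5.11-fold lower than G1 in each type. The largest of these folds, that of PIK3R2 in endoderm, rested on 3 S reads (ratio 0.196, 0.0387 to 0.617). PMPCB, a subunit of the peptidase that trims mitochondrial presequences, stood at 62.04 and 21.9 in hESCs against 37.98 and 3.42 in endoderm, the last on 2 reads. C1orf151, now MICOS10, a protein of mitochondrial cristae, stood at 44.6 and 12.4 in hESCs compared with 25.5 and 5.13 in endoderm. The last of these values rested on 3 reads. PNMAL2 had the smallest endoderm ratio of the 12, 0.0636, but on 1 read in S, so that its interval ran from 0.00157 to 0.376. The other 5 were GDPD1, a lysophospholipase D (ratios 0.245 and 0.177), RCBTB1 (0.299 and 0.129), NOXA1, an activator of NADPH oxidase (0.335 and 0.323), KIAA1783 (0.346 and 0.253) and FLJ36208 (0.341 and 0.344). The endoderm S signals of these 5 rested on 4 to 6 reads. The hESC difference of NOXA1, -1.54, came to -0.88 after the GC correction.

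Genes that moved opposite ways included the nodal antagonist LEFTY1, which had the highest mean signal of the 40 genes named by size. LEFTY1 (chr1:224140592-224140922, minus strand) is secreted in response to nodal and activin signalling and limits it. Its signal was 2933 in hESC G1 and 9399 in hESC S, against 1344 in endoderm G1 and 308 in endoderm S. Signal in S was thus 3.205 times that in G1 in hESCs (3.09 to 3.32) and 0.229 times in endoderm (0.196 to 0.267), and hESC S and endoderm S lay at the 2 extremes of the 4 values. The related LEFTY2 went the same ways to a smaller extent, with 379.8 and 688 in hESCs versus 17242 and 7252 in endoderm; it is named here after its values were seen. The 2 genes are close paralogs on chromosome 1, and reads shared between them could have been split or dropped.

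Of the 64 names with more S signal in hESCs and less in endoderm, the other 7 given were far less abundant than LEFTY1. HSPB9 (chr17:37530477-37530576, plus strand), a small heat shock protein, led with 3.78 and 37.8 in hESC G1 and S and 73.9 and 10.3 in endoderm. IVNS1ABP (chr1:183533538-183533704, minus strand), an actin-binding kelch protein, stood at 11.3 and 36.6 in hESCs against 118 and 13.7 in endoderm. PAOX, a polyamine oxidase, stood at 23.5 and 88.6 in hESCs compared with 14.5 and 1.71 in endoderm, the last on 1 read. DNAH7, an axonemal dynein heavy chain, had ratios of 3.99 and 0.283, MAP9, a microtubule-associated protein of the spindle, 3.58 and 0.212, and TERF2IP, the telomere protein RAP1, 5.27 and 0.314. Some of these rested on few reads. TERF2IP had 4 in hESC G1 (ratio interval 1.84 to 20.7), MAP9 had 6 in endoderm S, and HSPB9 had 5 in hESC G1 and 6 in endoderm S. CCL2, a chemokine, rested on 1 read in hESC G1 and 10 in hESC S (ratio 7.81, 1.11 to 339), and its hESC difference was 0.92 with 5 added to each signal in place of 1.

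The reverse pattern, less S signal in hESCs and more in endoderm, was met by 96 names. PTMS (chr12:6749801-6750387, plus strand), which encodes the small acidic nuclear protein parathymosin, had the most reads of the 8 given. It stood at 1884 in hESC G1, 501 in hESC S, 1112 in endoderm G1 and 4182 in endoderm S. Its ratios, 0.266 (0.246 to 0.288) and 3.76 (3.53 to 4.01), were close to mirror images, and the limma phase difference was 0.00 ± 0.86 (SE). HNRNPM (chr19:8415791-8415991, plus strand), a splicing regulator, stood at 363 and 30.7 in hESC G1 and S and 222 and 1325 in endoderm, the largest smaller difference of this class. A second HNRNPM region further downstream (chr19:8459598-8460008, plus strand) had a signal of 297 and 242 in hESCs, while endoderm had 342 and 291. Its differences were -0.29 and -0.23, so the reversal belonged to 1 of the 2 regions, the upstream one. Which of them marks the 3′ end of the gene was not checked, so a reversal of the HNRNPM message as a whole is not shown.

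LIMS1, an adaptor of integrin adhesions, stood at 34.8 and 7.09 in hESCs versus 80.8 and 503 in endoderm. KIF5B, the heavy chain of kinesin 1, had 90.03 and 12.4 in hESCs against 34.5 and 130.1 in endoderm, and PDPK1, the kinase that activates AKT, 58.3 and 9.45 against 61.5 and 219. In all 3, endoderm S was the highest and hESC S the lowest of the 4 libraries. The same held for NEFM, a neurofilament subunit (ratios 0.266 and 5.72), and for SOX21, a transcription factor of neural progenitors (0.1201, on 2 reads in hESC S, and 5.28). NPW, the precursor of neuropeptide W, had ratios of 0.284 and 5.73, and its hESC difference of -1.79 came to -0.72 after the GC correction.

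**Figure D3:**
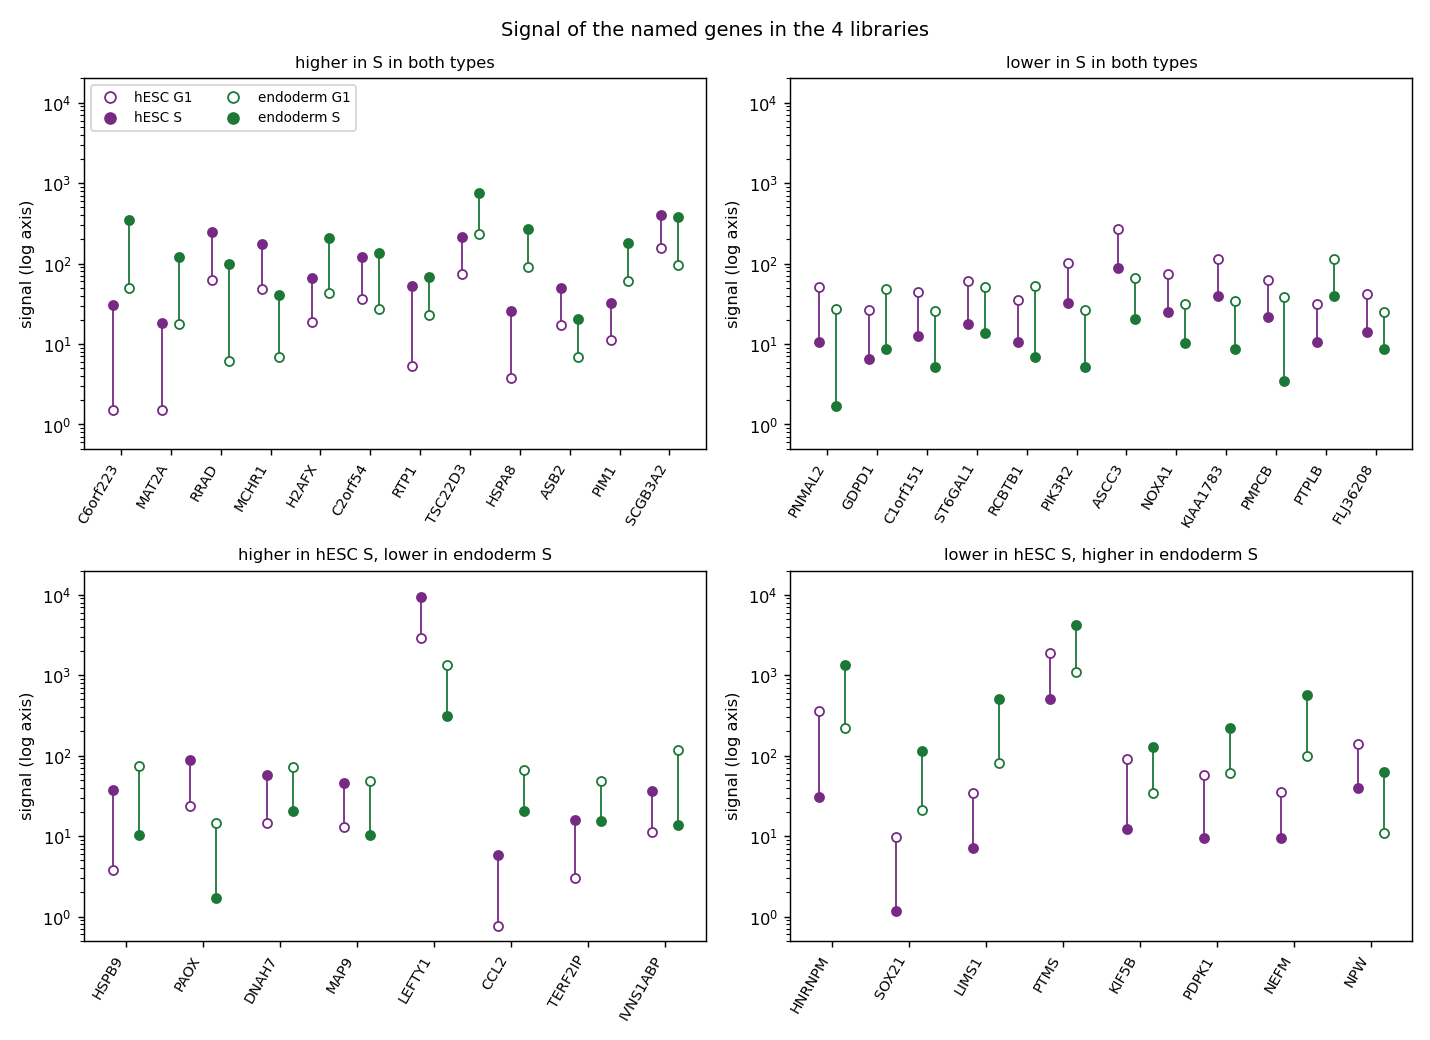
Signal (log axis) of the 40 named genes in hESC G1 and S (purple, open and filled) and endoderm G1 and S (green, open and filled), 1 panel per class, with a line joining the 2 libraries of a type. Filled points lie above open ones in both colours in the first panel and below them in the second; in the lower panels the 2 colours go opposite ways, as for LEFTY1 (2933 to 9399 in hESCs, 1344 to 308 in endoderm).

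Where a gene had several regions, a class was met by 1 of them and not by all. Of 384 genes with 2 or more regions of mean signal at least 20, 33 had a region in one of the 4 classes and in 0 of these did all regions share the class. Of all 8213 named regions at this signal only 315 were in a class. Genes with all regions in a class would thus be rare in any case, and the 0 is a description only. In 24 of the 33 the class was the one lower in hESC S and higher in endoderm S, which 115 of the 315 named regions in a class at this signal belonged to. Regions on another chromosome than their gene were not left out of these counts, and ACTG1, among the 24, has such a region. ACTN1, the actin crosslinker alpha-actinin 1, chosen after its values were seen, is an abundant case: its main region (chr14:68418943-68419100, minus strand) stood at 6303 and 2014 in hESC G1 and S and 3801 and 9286 in endoderm, and a minor one at 20.4, 25.4, 13.8 and 24.0. Each value covers 1 place where 3′ read ends gather, so it is not the total transcript of the gene. Whether a named region lies at the 3′ end of its gene was not checked, and this also holds for genes with a single region, such as KIF5B.

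Some regions without a gene name moved opposite ways by more than the genes above. The region at chrX:69258881-69258981 (plus strand) stood at 4161 in hESC G1, 531.0 in hESC S, 1540.4 in endoderm G1 and 14354 in endoderm S. The one at chr14:91652174-91652285 (plus strand) went the other way, from 12.1 to 396 in hESCs and from 192 to 20.5 in endoderm. Both were picked for their size after the values were seen, and the annotation of that build was not used here, so what they overlap is not stated.

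Of 62 measured genes on 3 lists of DNA replication, 6 were at least 2-fold higher and 9 lower in hESC S, and 2 higher and 9 lower in endoderm S. Over all 9581 gene names, each taken by its region of highest mean signal as in the lists, 9.71% were higher and 9.04% lower in hESC S, and 7.85% higher and 10.8% lower in endoderm S. The summed signal of the 62 genes was 26830 in hESC G1, 23094 in hESC S, 21596 in endoderm G1 and 21418 in endoderm S. Of the 19 measured genes of origin licensing, 1 was higher and 1 lower by that size in hESC S, and 1 higher and 2 lower in endoderm S, with median differences of -0.03 in hESCs and -0.29 in endoderm. Over all regions the medians were 0.01 and -0.04. Of the 26 fork and polymerase genes, 3 were higher and 7 lower in hESC S, and 0 higher and 5 lower in endoderm S, with medians of -0.52 and -0.22. Of the 17 genes of nucleotide synthesis, 2 were higher and 1 lower in hESC S, and 1 higher and 2 lower in endoderm S (medians 0.08 and -0.39). limma called 0 members in each of these lists and in every other list below.

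The helicase subunits MCM2, MCM3, MCM4, MCM5, MCM6 and MCM7 stayed within 2-fold. MCM2 stood at 182 and 299 in hESC G1 and S and 367 and 294 in endoderm. MCM5 went the other way at 2790.1 and 1902 in hESCs compared with 1801 and 2223 in endoderm, and MCM6 stood at 37.1 and 33.7 in hESCs versus 197 and 132 in endoderm. MCM7, the one with the most reads, had 3033, 2593, 2938 and 3114, and MCM3 and MCM4 had differences of -0.47 and 0.17 in hESCs against -0.20 and -0.29 in endoderm. The loaders differed from each other. CDC6 stood at 155 and 210.3 in hESCs compared with 95.3 and 46.2 in endoderm, a ratio of 1.36 (1.14 to 1.62) in the first and 0.485 (0.309 to 0.737) in the second. CDT1 stood at 2021 and 1349 in hESCs versus 1224 and 1303 in endoderm, and its inhibitor geminin, GMNN, at 13.6 and 7.09 against 11.7 and 6.85. ORC1L, the origin recognition subunit that is loaded in G1, stood at 8.32 and 25.4 in hESCs against 36.6 and 39.4 in endoderm. By its region of highest mean signal, GINS1, a cofactor of the helicase, was the member of the list in one of the 4 classes, at 40.1 and 12.4 in hESCs compared with 3.45 and 8.56 in endoderm, but its endoderm ratio of 2.48 had an interval of 0.571 to 10.8. A minor region of ORC6L, another origin recognition subunit, was in the same class, while its main region stood at 26.5 and 25.99 in hESCs versus 53.9 and 51.3 in endoderm.

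At the fork, PCNA, the sliding clamp of the polymerases, stood at 31.02 and 30.7 in hESC G1 and S and at 69.05 and 17.1 in endoderm. The hESC ratio of 0.9903 (0.645 to 1.53) and the endoderm ratio of 0.248 (0.115 to 0.475) did not overlap. The clamp loader subunit RFC3 moved opposite ways, at 18.2 and 92.1 in hESCs versus 52.5 and 23.96 in endoderm. FEN1, the flap endonuclease of Okazaki fragment processing, stood at 53.7 and 186 in hESCs against 204 and 127 in endoderm. RPA1, the large subunit of the single-strand binding protein, was lower in S in both types, at 104 and 36.6 in hESCs compared with 80.8 and 30.8 in endoderm. The primase subunit PRIM1 was lower by size in both as well, at 18.2, 6.498, 12.4 and 5.13, but its endoderm ratio of 0.413 rested on 3 S reads and had an interval of 0.07796 to 1.42. TOP2A, the topoisomerase that resolves sister chromatids, stood at 611 and 222 in hESCs versus 499 and 710.3 in endoderm. The catalytic subunit POLD1 (-1.06 and 0.55) and the checkpoint adaptor CLSPN (-1.39 and 0.17) had differences of the same pattern as TOP2A, and the chromatin assembly subunit CHAF1B stood at 299 and 217 in hESCs against 246 and 87.3 in endoderm.

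In nucleotide synthesis, thymidylate synthase, TYMS, stood at 411 and 304 in hESC G1 and S and 240.3 and 135 in endoderm. The 2 subunits of ribonucleotide reductase differed in endoderm, where RRM1 stood at 46.95 and 20.5 and RRM2 at 104 and 128; in hESCs they stood at 43.1 and 52.6 and at 227 and 239. Thymidine kinase, TK1, had 2808, 3359.9, 3019 and 2795 and stayed within 2-fold in both types. SLBP, which binds the 3′ end of replication-dependent histone messages, stood at 79.4 and 51.4 in hESCs versus 158 and 106 in endoderm.

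The kinase CDK2, partner of the E and A cyclins, had 780.0 in hESC G1, 207 in hESC S, 657 in endoderm G1 and 1212 in endoderm S. Its ratios, 0.266 (0.235 to 0.3003) and 1.85 (1.67 to 2.04), lay on opposite sides of 1, the endoderm one short of 2-fold. Of the 17 G1 cyclins, kinases, inhibitors and pocket proteins measured, 3 were higher and 2 lower in hESC S and 2 higher and 0 lower in endoderm S (medians 0.09 and -0.14). The shares of all gene names were 9.71% higher and 9.04% lower in hESC S, and 7.85% higher and 10.8% lower in endoderm S. Cyclin E1, CCNE1, which activates CDK2 at the start of S, stood at 381 and 266 in hESCs against 349 and 178 in endoderm, and CCNE2 at 17.4, 6.498, 8.98 and 5.13. Cyclin D1, CCND1, the growth-signal cyclin, stood at 2651 and 2331 in hESCs compared with 2437 and 5280.5 in endoderm; CCND2 and CCND3 had differences of 0.01 and 0.00 in hESCs versus 0.39 and -0.27 in endoderm. CDC25A, the phosphatase that activates CDK2, stood at 22.7 and 70.9 in hESCs against 59.4 and 44.5 in endoderm. Among inhibitors, CDKN2A stood at 19.7 and 38.99 in hESCs compared with 133 and 361 in endoderm, CDKN1C at 188 and 197 against 967 and 520.3, and CDKN1A at 1633 and 2176 against 530.3 and 626.

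Of the 7 E2F and DP factors measured, 0 were at least 2-fold higher in S in either type, 2 were lower in hESCs and 2 in endoderm. Among all gene names 9.71% were higher and 9.04% lower in hESC S, and 7.85% higher and 10.8% lower in endoderm S. E2F1, an activator, stood at 319 and 146 in hESCs versus 428 and 414 in endoderm. E2F2, another activator, was lower in S in both types, at 21.9 and 4.73 in hESCs against 74.6 and 34.2 in endoderm, and the repressor E2F7 had differences of 0.78 and 0.86. The median of this list in hESCs was -0.26, and -1.12 with quantile normalisation.

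Promoters of the replication genes often hold E2F motifs. E2F motifs were searched as TTTGGCGC, TTTCCCGC, TTTGGCGG and TTTCGCGC on both strands in RefSeq promoters of GRCh38.p14, from 250 bases before to 50 bases after the start, with entries for 7358 of the measured names. The motif was found in 56.2% of 16 licensing promoters and 37.5% of 24 fork promoters, against 5.50% of the measured names and 3.37% of the 27305 promoters in the table. The 250 upstream bases of CDC6, MCM6 and E2F2 are shown 5′ to 3′ because these genes are described above and their windows hold the motif, which is in capitals; in MCM6 matches on the 2 strands overlap within each of its 2 capital runs. A match is a description of the sequence and not of binding.
CDC6 promoter, chr17:40287629-40287878, plus strand: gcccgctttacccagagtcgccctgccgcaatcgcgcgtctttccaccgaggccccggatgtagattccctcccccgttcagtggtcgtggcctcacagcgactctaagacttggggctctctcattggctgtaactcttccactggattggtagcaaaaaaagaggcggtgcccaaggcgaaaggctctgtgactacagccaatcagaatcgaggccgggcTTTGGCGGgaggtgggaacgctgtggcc
MCM6 promoter, chr2:135876444-135876693, minus strand: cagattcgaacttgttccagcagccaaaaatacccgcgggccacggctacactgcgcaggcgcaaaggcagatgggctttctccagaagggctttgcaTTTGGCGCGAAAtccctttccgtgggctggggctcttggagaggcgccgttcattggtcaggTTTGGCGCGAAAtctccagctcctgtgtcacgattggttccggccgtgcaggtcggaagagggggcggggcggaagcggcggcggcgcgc
E2F2 promoter, chr1:23531234-23531483, minus strand: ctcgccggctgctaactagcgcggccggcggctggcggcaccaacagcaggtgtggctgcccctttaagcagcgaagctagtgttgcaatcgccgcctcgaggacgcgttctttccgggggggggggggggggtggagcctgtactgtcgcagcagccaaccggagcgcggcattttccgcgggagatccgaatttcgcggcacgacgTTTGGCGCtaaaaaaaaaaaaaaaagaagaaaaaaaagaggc

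Genes of G2 and mitosis, which act after S, had medians near 0: 0.15 in hESCs and 0.12 in endoderm over 35 genes. By 2-fold, 3 were higher and 4 lower in hESC S and 3 higher and 5 lower in endoderm S. The shares of all gene names were 9.71% higher and 9.04% lower in hESC S, and 7.85% higher and 10.8% lower in endoderm S. Cyclin A2, CCNA2, which partners CDK2 in S and CDK1 in G2, stood at 73.4 and 37.8 in hESC G1 and S and 45.6 and 10.3 in endoderm. Cyclin B1, CCNB1, of mitotic entry, stood at 2.27 and 11.2 in hESCs, the first on 3 reads, and 27.6 and 27.4 in endoderm. The mitotic kinase PLK1 stood at 71.9 and 131 against 215 and 344, higher in S in both types by under 2-fold. The kinase AURKB of the chromosomal passenger complex moved opposite ways, at 37.1 and 15.9 in hESCs compared with 1.38 and 17.1 in endoderm, where G1 held 2 reads. KIF11, a spindle motor, and BUB3, of the spindle checkpoint, were lower in S in both types, with endoderm differences of -1.88 and -1.47 on 1 and 4 reads in S. MKI67, the proliferation antigen, stood at 203 and 185 in hESCs versus 224 and 450.2 in endoderm.

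Histone genes, whose products package new DNA in S, are mostly read from messages without a poly(A) tail, and the libraries were made from poly(A) RNA. Of the 32 genes listed 10 were measured, and the reason was not tested. In hESC S 2 of them were higher and 0 lower, and in endoderm S 3 were higher and 0 lower, with medians of 0.29 and 0.45, against 9.71% of gene names higher in hESC S and 7.85% in endoderm S. Besides H2AFX, HIST1H4C stood at 9.08 and 10.04 in hESCs against 26.2 and 187 in endoderm, and HIST1H2AE at 10.6 and 20.7 against 8.29 and 18.8. H2AFZ had 0 reads in hESC G1 and 4.13 in hESC S, at least 1.82-fold higher when set against the limit of 3 reads, and with that bound 1 histone gene is 2-fold higher in hESC S and the median stays at 0.29. Replication-dependent histone genes are near-identical copies, so the counts of single members are uncertain.

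Of 20 DNA repair genes measured, 11 had negative differences in both types and 0 positive ones in both, against 2550 negative and 2046 positive in both among 9581 gene names. The medians were -0.44 in hESCs and -0.60 in endoderm, and 1 was higher and 2 lower by 2-fold in hESC S and 1 higher and 6 lower in endoderm S. The shares of all gene names that were lower are 9.04% in hESCs, close to that of this list, and 10.8% in endoderm. The mismatch repair factor MSH6 stood at 37.8 and 25.4 in hESCs compared with 54.5 and 5.13 in endoderm, the last on 3 reads. XRCC2, a factor of homologous recombination, had 0 reads in endoderm S, and its endoderm G1 signal of 3.45 lies below the limit of 3 reads in that S library, so no fold is given. Counting it as no difference leaves 5 genes lower in endoderm S and a median of -0.54.

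**Figure D4:**
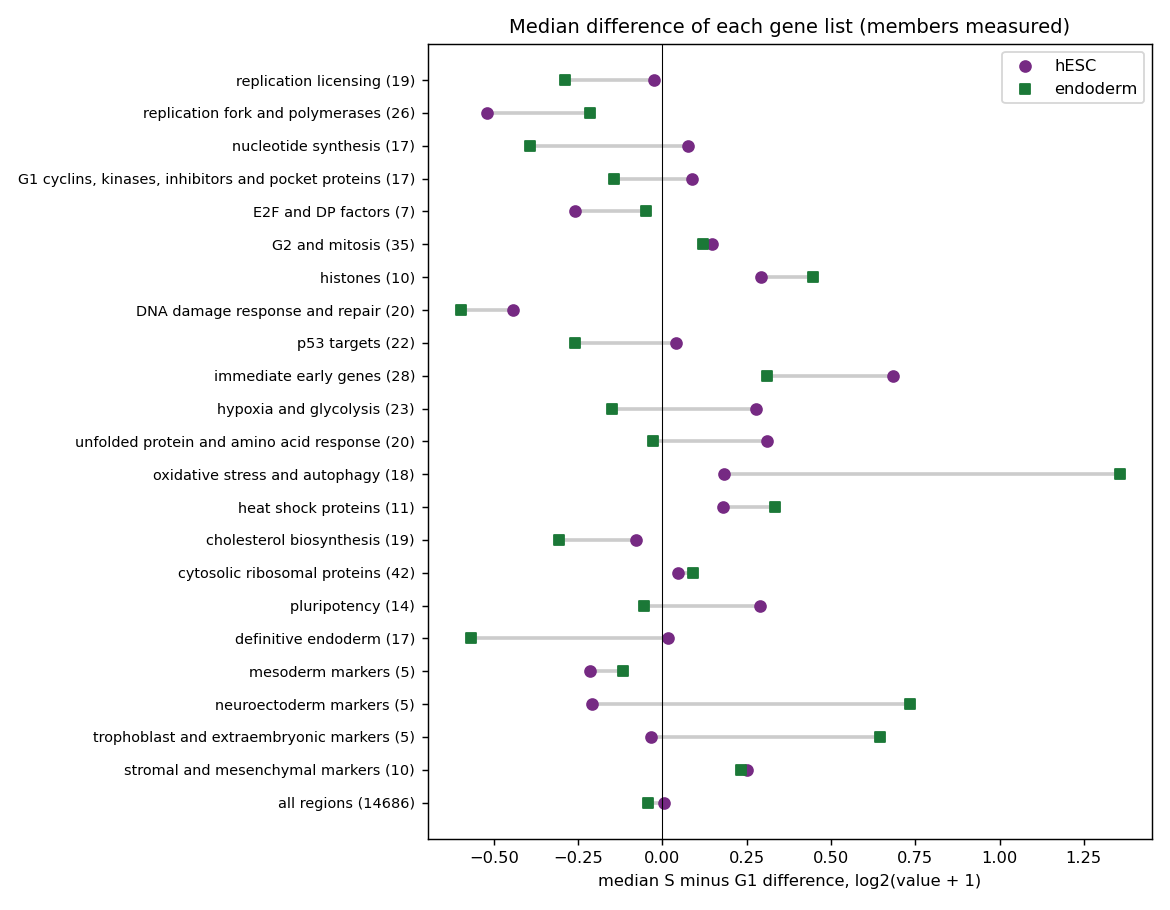
Median S minus G1 difference of log2(signal + 1) in hESCs (circles) and endoderm (squares) for each gene list, with the number of members measured in brackets and all 14686 regions at the bottom. DNA repair lies below 0 in both types (-0.44 and -0.60), immediate early genes above 0 in both (0.68 and 0.31), and the oxidative stress list is at 0.18 in hESCs and 1.36 in endoderm.

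Many genes of the oxidative stress and autophagy list had more S than G1 signal in endoderm. Of 18 measured, 10 were at least 2-fold higher in endoderm S and 0 lower, where 7.85% and 10.8% of all gene names were. In hESC S 2 were higher and 0 lower, against 9.71% and 9.04% of all gene names. The medians were 1.36 in endoderm and 0.18 in hESCs, and the difference between the types was not tested. MT1F, a metallothionein, was higher in both types, at 39.3 and 85.1 in hESC G1 and S and 62.1 and 164 in endoderm. The following members were chosen after their values were seen. HMOX1, which degrades haem, stood at 654 and 774 in hESCs versus 254 and 1082 in endoderm, with an endoderm ratio of 4.26 (3.74 to 4.85) and an hESC ratio of 1.18 (1.09 to 1.29). TXNRD1, thioredoxin reductase, stood at 124 and 124 in hESCs against 240.3 and 784 in endoderm. GCLM, a subunit of the enzyme that starts glutathione synthesis, stood at 51.4 and 30.7 in hESCs compared with 16.6 and 80.4 in endoderm, and SRXN1, sulfiredoxin, at 16.6 and 14.8 against 19.3 and 89.01. SQSTM1, the autophagy adaptor p62, had more S signal in both, at 998 and 1920.4 in hESCs versus 1241 and 3793 in endoderm. MT1G had 0 reads in endoderm G1 and 11.98 in endoderm S, at least 5.78-fold higher against the limit of 3 reads, and the list's median is 1.36 with that bound as well. Metallothionein genes are close copies, so their single counts are uncertain.

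Antioxidant response elements, searched as TGACNNNGC and TGANTCAGC on both strands in the same promoter windows, were found in 5 of the 12 members with an entry (41.7%), against 15.9% of the measured names and 14.1% of all promoters. The windows of GCLM and TXNRD1 are shown, with the match in capitals, because these 2 genes were higher in endoderm S and hold one; SRXN1, NQO1 and SQSTM1 have no match in these letters in this window.
GCLM promoter, chr1:93909431-93909680, minus strand: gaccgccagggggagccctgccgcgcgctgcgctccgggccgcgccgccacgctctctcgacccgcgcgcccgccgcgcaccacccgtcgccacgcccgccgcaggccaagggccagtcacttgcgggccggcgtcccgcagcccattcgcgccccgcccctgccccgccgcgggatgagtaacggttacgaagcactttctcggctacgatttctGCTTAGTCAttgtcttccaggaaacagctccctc
TXNRD1 promoter, chr12:104215529-104215778, plus strand: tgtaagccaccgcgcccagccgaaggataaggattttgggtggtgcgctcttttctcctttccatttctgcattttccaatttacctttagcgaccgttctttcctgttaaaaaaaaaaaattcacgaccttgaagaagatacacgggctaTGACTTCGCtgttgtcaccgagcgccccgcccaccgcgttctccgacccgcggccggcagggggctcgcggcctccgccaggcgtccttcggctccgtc

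Immediate early genes, which respond within minutes to growth factors and stress, had positive medians in both types, 0.68 in hESCs and 0.31 in endoderm. Of 28 measured, 9 were higher and 1 lower in hESC S, 7 higher and 3 lower in endoderm S, and 14 had positive differences in both. Of the 9581 gene names 9.71% were higher and 9.04% lower in hESC S, 7.85% higher and 10.8% lower in endoderm S. Positive differences in both types were seen for 2046 of these names. An unadjusted limma p under 0.05 was given for 8 of the 28 immediate early genes, against 202 of the 9581 gene names. After adjustment 0 passed. DUSP2, a phosphatase of MAP kinases, was at least 2-fold higher in both, at 22.7 and 59.7 in hESCs against 2.76 and 11.98 in endoderm, the G1 value there on 4 reads. ZFP36, which destabilises messages with AU-rich elements, moved opposite ways, at 27.99 and 5.91 in hESCs compared with 14.5 and 32.5 in endoderm. Chosen after their values were seen, the AP-1 subunits differed among themselves. FOSL1 stood at 649.9 and 1181 in hESCs versus 494 and 1446 in endoderm, and JUNB at 52.96 and 106 against 69.05 and 154. FOS had less S signal in endoderm, at 32.5 and 6.85, and 15.1 and 11.8 in hESCs, and the zinc finger factor EGR1 stood at 75.7 and 48.4 in hESCs against 87.7 and 11.98 in endoderm.

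**Figure D5:**
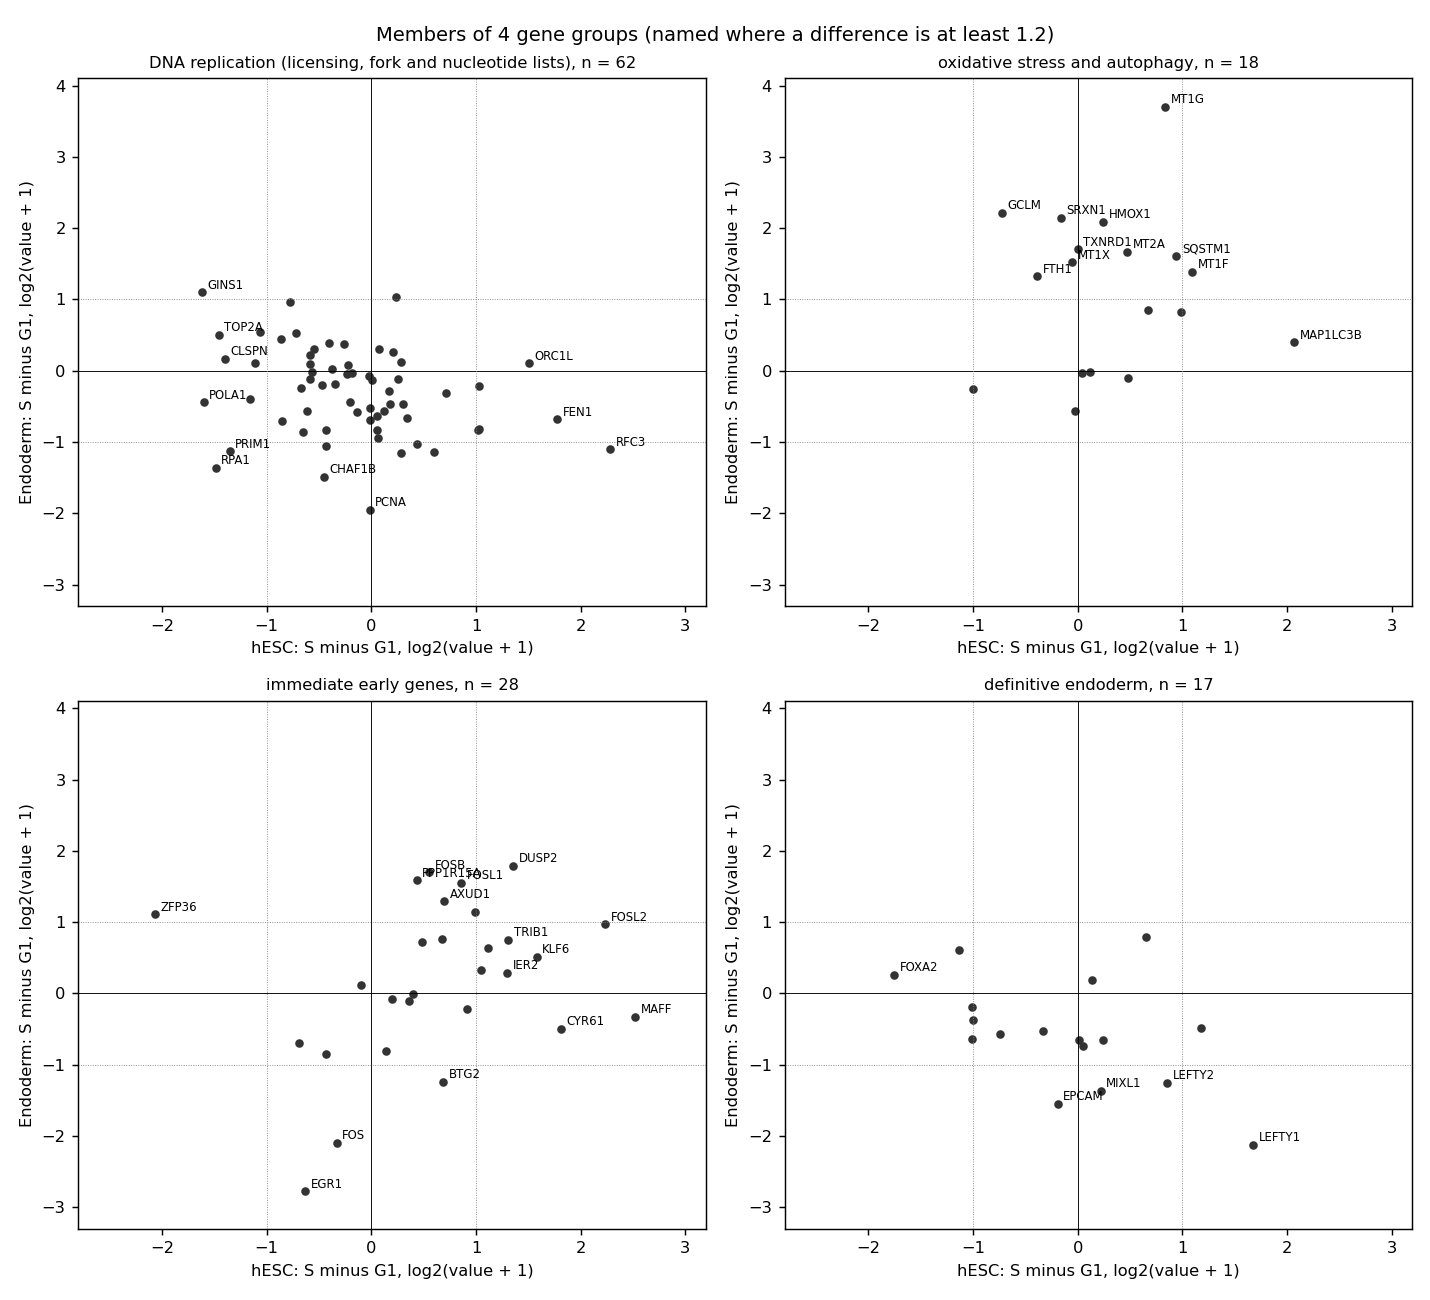
S minus G1 difference of log2(signal + 1) in hESCs (x axis) and endoderm (y axis) for each member of 4 gene groups, named where either difference is at least 1.2; dotted lines mark 2-fold. The replication genes lie on both sides of 0, with 23 of the 62 below it in both types, 5 above it in both, and PCNA at -0.01 and -1.95, while most of the 18 oxidative stress and autophagy genes lie above 0 in endoderm.

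Stress and metabolic lists had a few members in common between the types. For the counts below, 9.71% of all gene names were higher and 9.04% lower in hESC S, and 7.85% higher and 10.8% lower in endoderm S. DDIT3, the transcription factor CHOP of the unfolded protein response, was higher in both at 59.01 and 133 in hESCs compared with 219 and 488 in endoderm, and of the 20 genes of its list 5 were higher and 1 lower in hESC S and 3 higher and 1 lower in endoderm S. PFKP, a phosphofructokinase of glycolysis, was higher in both at 678 and 2275 in hESCs versus 359 and 757 in endoderm. LDHA and PDK1, which steer pyruvate away from the mitochondria, moved opposite ways, with differences of 1.38 and 1.21 in hESCs against -1.52 and -1.14 in endoderm, on 3 to 40 reads. Of the 23 hypoxia and glycolysis genes 6 were higher and 0 lower in hESC S, and 3 higher and 2 lower in endoderm S (medians 0.28 and -0.15, the first 0.11 after the GC correction). Of the 11 genes measured on the heat shock list, which does not hold HSPB9, HSPA8 alone reached 2-fold, and did so in both types. Of 22 p53 targets 1 was higher and 0 lower in hESC S and 1 higher and 2 lower in endoderm S, the lower ones in endoderm being RRM2B, at 48.3 and 10.3, and BTG2, at 73.9 and 30.8. Of 19 genes of cholesterol synthesis 2 were higher and 2 lower in hESC S and 0 either way in endoderm S.

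Cytosolic ribosomal proteins held 9 genes at least 2-fold higher and 1 lower in hESC S and 3 higher and 3 lower in endoderm S, of 42 measured, with medians of 0.05 and 0.09. Among all gene names 9.71% were higher in hESC S, and in endoderm S 7.85% were higher and 10.8% lower. RPS12, of the small subunit, had a signal of 55.2 in hESC G1 and 1447 in hESC S, against 181 and 226 in endoderm. RPL27, of the large subunit, stood at 578 and 3713 in hESCs compared with 604 and 722 in endoderm. In both genes hESC S was the highest of the 4 libraries, and the endoderm libraries were near each other. Ribosomal protein genes have many processed pseudogenes, so single counts are uncertain.

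Of 17 definitive endoderm genes, 0 were 2-fold higher and 4 lower in endoderm S, with a median of -0.57, where 7.85% of all gene names were higher and 10.8% lower. The 4 were LEFTY1, LEFTY2, MIXL1, a homeobox factor of the primitive streak, at 684 and 265, and EPCAM, an epithelial adhesion molecule, at 217 and 73.6. In hESCs, where most of these genes have few reads, 2 were higher and 4 lower (median 0.02), against 9.71% and 9.04% of all gene names. The summed signal of the list was 4786 and 11201 in hESC G1 and S, most of it LEFTY1, and 47251 and 27344 in endoderm G1 and S. Pluripotency genes had medians of 0.29 in hESCs and -0.06 in endoderm over 14 measured, with 2 higher and 1 lower in hESC S and 1 higher and 1 lower in endoderm S. LIN28, an RNA-binding protein of pluripotent cells, was one of those higher in hESC S, at 26.5 and 64.4.

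Markers of other cell types were measured to see whether they moved with the phase. Summed over the 5 mesoderm markers with a region, of 12 listed, the signal was 107 and 154 in hESC G1 and S and 135 and 318 in endoderm, the last carried by TWIST1 at 264. The 5 neuroectoderm markers, of 12, summed to 7622 and 6056 in hESCs and 5497 and 10145 in endoderm, most of it the intermediate filament nestin, NES. SOX3, a factor of neural progenitors that pluripotent cells also make, was higher in S in both types, at 40.1 and 95.1 in hESCs versus 76.6 and 282 in endoderm. The 5 trophoblast and extraembryonic markers, of 13, summed to 309 and 355 in hESCs and 327 and 531 in endoderm, with TTR at 0 in both endoderm libraries. The 10 stromal and mesenchymal markers, of 15, summed to 8948 and 10976 in hESCs and 9399 and 11158 in endoderm. Of these COL1A1, a fibrillar collagen, was higher in S in both types, at 1712 and 3479 in hESCs against 565 and 1210.2 in endoderm. The part of these marker levels in the phase differences was not tested.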

How the data were processed

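The labels' protocols describe 3′ RNA-seq of poly(A) RNA with 15 PCR cycles. Tools listed in the submitters' processing notes are DESeq 1.5.24, Bowtie 0.12.7 and CASAVA 1.5, along with NCBI36 and hg18, and what each was used for is not given in the sources used here. A single table was deposited by the authors, with signal values for 14686 regions and 6 libraries. These deposited values are linear: at a tolerance of 1e-06, 100% of them are whole reads divided by 1 size factor per library. The design allowed for values on a log scale, so log2(signal + 1) was taken, a scale that understates changes of weak regions.

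S was compared with G1 with limma 3.58.1 in R 4.3.3 (term for cell type, eBayes with an intensity trend, 1 residual degree of freedom and a prior of 4.80, Benjamini-Hochberg over 14686 regions, threshold 0.05). The phase term assumes that S does the same in both types. edgeR 4.0.16 and DESeq2 1.42.0 were run on the recovered reads. Within a type there is 1 library per phase and no test, so a difference of 1 on the log2 scale in both types was the size rule, beside exact conditional binomial intervals at 95%. The scripts were tested on simulated data, where the check of the limma fit was that S differences planted alike in both types were recovered in size. How often that fit could call such differences is not reported here.

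The comparison, the gene lists and the rules were chosen with earlier results of these data known. Named genes were, for each name's region with the highest mean, those with a mean signal of at least 20 and both intervals leaving out 1, ordered by the smaller of their 2 differences, 12 for each same-way class and 8 for each opposite one. List members were named where they fell in a class, or else the 2 to 4 with the largest mean difference, and any cell cycle gene could be named. Of 9588 gene names, 7978 matched a current symbol, 1159 an older one, 68 several genes and 383 none. GC content was known for 95.3% of named regions, from a later annotation, and 10 regions on another chromosome than their gene were left out of the lists. Promoters are RefSeq sequences of GRCh38.p14. The genome of the deposited positions was not used here. Values of some single genes are not reported here.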

Additional observations from a re-analysis of the deposited data

Results flagged for a closer look

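The 16 genes below are those named for moving opposite ways, so that the 2 libraries of one type differ one way and those of the other type the opposite way. The difference between the types was not tested, since each rests on 1 library per type and phase, and the genes were chosen for it, so the values are a description. Each value is the endoderm difference minus the hESC difference, on the log2(signal + 1) scale.

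Lower in endoderm S and higher in hESC S were HSPB9 (-5.75), IVNS1ABP (-4.63), PAOX (-4.39), MAP9 (-3.89), LEFTY1 (-3.80), DNAH7 (-3.69), TERF2IP (-3.68) and CCL2 (-3.62). LEFTY1 has by far the most reads of this set, and PAOX and CCL2 have a library with 1 read.

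Higher in endoderm S and lower in hESC S were HNRNPM (6.09), LIMS1 (4.77), SOX21 (4.66), KIF5B (4.65), PDPK1 (4.32), NEFM (4.31), NPW (4.21) and PTMS (3.82). The HNRNPM value holds for 1 of its 2 regions.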

How the results depend on the processing

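The count of regions called by limma was 0 under the other settings with the 4 libraries, with edgeR and with DESeq2 (lowest adjusted p 0.0986). In the fit with all 6 libraries it ranged from 0 to 207 when 1 library was left out, 207 without endoderm G1 and 1 without hESC G1; the cause was not tested. Leaving a library out of the 4 leaves no residual degree of freedom, so that fit was not run. Cell type pairs the libraries and is a term of the fit, without which 34 regions had an unadjusted p under 0.05 and 0 were called.

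In the order higher in both, lower in both, hESC higher with endoderm lower, and the reverse, the class counts were 98, 84, 229 and 122 with 5 added to each signal, and 101, 86, 193 and 139 with a mean signal of at least 20. They were 37, 17, 108 and 36 with 3-fold in place of 2-fold, 83, 132, 148 and 126 with 1 region per gene name, and 84, 128, 129 and 127 with GC correction. These settings test fewer regions or ask for more, by construction. With both intervals leaving out 1, lower in both came to 115. Opposite regions outnumbered same-way ones in each of the 10 other settings run, by 1.21 times (GC correction) to 2.67 times (3-fold). Of 474 recomputed differences of named genes 474 kept their sign and 471 stayed at 1 or more. Of 264 recomputed list medians, 0 of those at least 0.25 in size changed sign.

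The fewest reads of a region over the 4 libraries is 25 and the median 205.0, and 363 regions have 0 reads in endoderm S, against 13 in hESC S. Differences of weakly expressed regions are limited most by the endoderm S library.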
